A study of Mus musculus with 8 samples.

Results

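The cytosolic sensors of foreign RNA and DNA, their adaptors and the enzymes closest to them were followed in mouse embryonic fibroblasts (MEFs) that carry a wild-type or a mutant form of Pontin. The set holds 10 genes of the 49492 rows in the table, and was found by gene symbol: Ddx58 (RIG-I), Ifih1 (MDA5), Dhx58 (LGP2), Mavs, Tmem173 (STING), Mb21d1 (cGAS), Tlr3, Zbp1, Eif2ak2 (PKR) and Adar. Tlr3 is an endosomal receptor and not a cytosolic one. All 10 genes passed a filter on low values, as did 16232 genes in all. The genes were chosen by differences between the genotypes: interferon-responsive genes were already known to differ between mutant and wild-type cells when the set was drawn up. Differences between the genotypes are therefore given as descriptions with no p-value. Counts of genes past the threshold of the fit in those contrasts are also descriptions, and only the response to medium within a genotype is reported as a test. That response shares its libraries with the genotype contrasts, so its p-values are not independent of the choice of genes.

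RNA-seq of polyA RNA was performed on 8 libraries in 4 groups of 2 replicates each: Pontin WT in normal medium, Pontin WT under glucose starvation, Pontin RA in normal medium and Pontin RA under glucose starvation. Pontin is the ATPase that Ruvbl1 encodes, known from complexes that remodel chromatin, and RA is a form whose methylated arginines were replaced by alanine. Per the study's methods, both genotypes were immortalized Pontin f/f MEFs that received Flag-tagged Pontin from a lentivirus, were selected for it, and lost the endogenous gene through Cre recombinase, so the added copy, its vector and Cre were common to all 4 groups. Each genotype was 1 stably expressing line, so the line and the Pontin form cannot be told apart. The same methods give culture in medium with fetal bovine serum, and starvation by a PBS wash and glucose-free medium with dialyzed serum. Whether the normal medium also held dialyzed serum is not stated, so effects of glucose and of serum may not be separable. Nothing in the labels said whether replicates came from separate cultures, so p-values measure only the spread between these libraries, and the hours of starvation were not given in the sources used here.

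Between 43205841 and 56363034 reads were recovered per library, and a value of 3 reads corresponded to 0.0548 to 0.069. Values are CPM, reads scaled to a common total using a library size set by the authors, given per sample (replicate 1, then replicate 2) or as mean ± SD with n = 2. Of 10 fibroblast markers 9 reached a CPM of 1 in some library and Lum did not. Their summed CPM was 10007 to 10087 in WT and 9918 to 10246 in RA in normal medium, and 5313 to 5406 in WT and 7042 to 7059 in RA under starvation. Of 10 leukocyte markers 3 reached 1 (Csf1r, Cd68 and Cd14), Cd3e and Siglech were at 0 in every library, and the sums were 21.0 to 21.6, 25.3 to 26.4, 24.0 to 24.8 and 24.2 to 24.7 in the order WT normal, WT starved, RA normal and RA starved. The sums of the 4 epithelial markers were 1.43 to 3.21, and those of the 4 endothelial markers 2.02 to 3.43 in normal medium, 8.92 to 9.43 in starved WT and 5.99 to 6.34 in starved RA. The part of these marker levels in the results was not tested. The targeted gene Ruvbl1 stood at 28.0 ± 0.58 and 28.2 ± 0.38 in WT and at 34.4 ± 3.4 and 44.0 ± 1.5 in RA, in normal medium and under starvation; as each line carried an added Pontin copy, this level does not check which form was present. In bulk RNA fewer cells of a type and less RNA per cell cannot be told apart.

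Cells recognise viral nucleic acid where it should not be. RIG-I and MDA5 are helicases that bind double-stranded RNA in the cytosol and pass the signal to MAVS on the mitochondrial surface, while cGAS binds DNA and makes a cyclic dinucleotide that activates STING on the endoplasmic reticulum. Both routes lead to type I interferon, and interferon in turn raises transcription of most of these sensors in a loop best known from virus infection and active in fibroblasts. Short promoter elements of such genes are the interferon-stimulated response element (ISRE), through which type I interferon acts, and the gamma-activated site (GAS), best known from interferon gamma.

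Of the 10 genes, 7 had at least 1 start in the RefSeq promoter table (GRCm38.p6), with 9 windows that ran from 250 bases before to 50 bases after a start. Dhx58, Tmem173 and Zbp1 had none. The ISRE core was searched as GAAANNGAAA on both strands (TTTCNNTTTC on the other) and the GAS as TTCNNNGAA, which reads the same on both strands. The ISRE core lay in 3 of the 7 genes, and in 3.99% of all 27025 genes with a window. The GAS lay in 2 of the 7, and in 9.55% of all genes. The matches are printed because they are the letters through which the interferon loop is known to act on such genes; motif letters are in capitals, each line is 5′ to 3′ on the strand of its gene, and a match is a description and not a bound site.
Ddx58, ISRE core read on the opposite strand, bases 3 to 12 after the start, chr4:40239804-40239833, minus strand: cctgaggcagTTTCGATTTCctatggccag
Eif2ak2, ISRE core, bases 19 to 28 after the start, chr17:78882535-78882564, minus strand: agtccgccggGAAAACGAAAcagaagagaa
Ifih1, ISRE core, bases 33 to 42 after the start, chr2:62646206-62646235, minus strand: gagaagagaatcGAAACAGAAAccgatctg
Eif2ak2, GAS, bases 178 to 170 before the start, chr17:78882731-78882760, minus strand: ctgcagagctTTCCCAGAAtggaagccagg
Adar, GAS, bases 23 to 31 after one of its starts, chr3:89730730-89730759, plus strand: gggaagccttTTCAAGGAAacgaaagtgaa

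The ISRE cores lay just after the start, in transcribed bases, and the GAS of Eif2ak2 lay upstream of it. Eif2ak2 was the member that held both motifs. The windows of Mavs, Mb21d1 and Tlr3 held neither, which says only that these letters are not in those 300 bases.

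All 10 genes fell upon glucose starvation in Pontin WT MEFs (limma, Benjamini-Hochberg (BH) adjusted p under 0.05 over all tested genes), where 39.2% of all tested genes fell and 39.3% rose. The median log2 change of the 10 was −1.87 with a range from −2.84 to −0.19, and the median of all tested genes was 0.0049. In Pontin RA MEFs the set split: 3 genes rose (Zbp1, Ddx58 and Adar), 4 fell (Mb21d1, Tlr3, Tmem173 and Eif2ak2) and 3 passed in neither direction (Ifih1, Dhx58 and Mavs), with a median of 0.02 against 0.013 for all genes. Over all genes in RA 35% rose and 33.7% fell, so the share of members that rose or fell in RA was near the background. The starved and normal libraries did not overlap for 9 genes in WT (all but Mavs) and for 9 in RA (all but Ifih1), which was also the case for 88.7% of all tested genes in WT and 83.3% in RA.

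**Figure D1:**
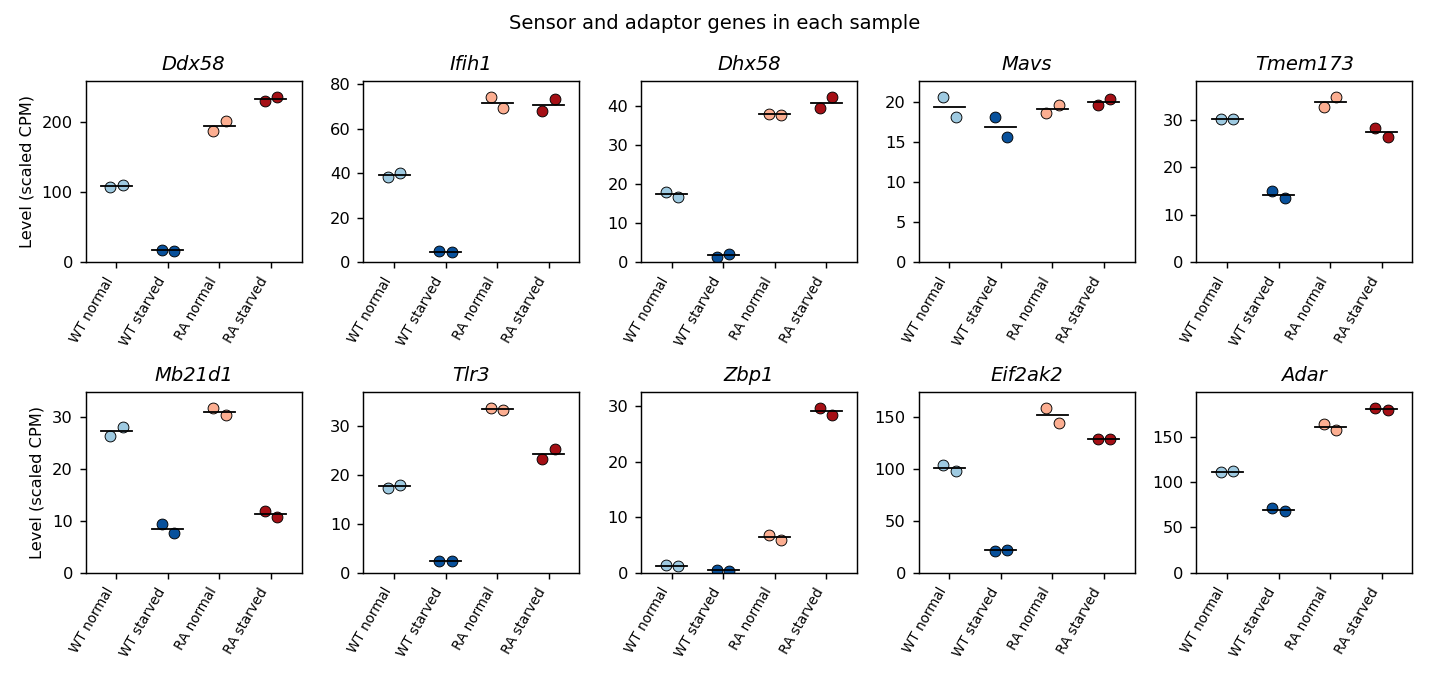
Level of each of the 10 genes in every library, in CPM of the scaled library size on axes that start at 0, with points for single libraries (2 per group) and a line at the group mean. In starved WT all genes but Mavs lie below their other groups, and Zbp1 is above 28 only in starved RA.

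The RIG-I-like receptors were the members that fell furthest in WT on the log2(CPM + 1) scale. In CPM Tlr3 fell further than Ddx58, to 13.7% of its normal level against 15.2%. RIG-I (Ddx58) recognises RNA with a free 5′ triphosphate. In WT it stood at 108 and 111 in normal medium and at 17.2 and 15.9 after starvation, and in RA at 187 and 202 and at 231 and 236. The starved WT libraries lay far below all others, and the starved RA libraries above all others. Starvation left 15.2% of the normal level in WT (log2 change −2.65, SE 0.047, limma BH-adjusted p = 7.96e-18) and 119.8% in RA (0.26, adjusted p = 1.18e-04).

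MDA5 (Ifih1) recognises long double-stranded RNA. Normal WT libraries held 38.3 and 39.9 and starved ones 4.69 and 4.49, whereas RA libraries held 74.1 and 69.2 before and 68.1 and 73.3 after starvation. The RA libraries of both media overlapped, and those of WT lay far apart. The WT level fell to 11.7% (log2 change −2.84, SE 0.061, limma BH-adjusted p = 6.98e-17), and the RA change was −0.02 with a 95% interval from −0.15 to 0.11 (adjusted p = 0.785).

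LGP2 (Dhx58), a helicase of the same family that lacks the signalling domains and modulates the other receptors, stood at 18 and 16.7 in normal WT and at 1.38 and 2.10 in starved WT, where it rested on 66 and 115 reads. In RA it stood at 37.9 and 37.7 in normal medium and at 39.4 and 42.1 under starvation. It fell to 10.1% in WT (log2 change −2.75, SE 0.101, limma BH-adjusted p = 9.67e-14), and in RA the change was 0.11 with a 95% interval from −0.11 to 0.32 (adjusted p = 0.366). Dhx58 shares 141 exon bases with the antisense gene Dhx58os, whose CPM was 0.324 to 0.496 of that of Dhx58 in the 8 libraries; the library kit does not mark strand, so reads from the shared bases cannot be told apart.

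Tlr3, which recognises double-stranded RNA inside endosomes, had values of 17.4 and 17.9 in WT with glucose and 2.47 and 2.38 without, next to 33.7 and 33.2 in RA with glucose and 23.3 and 25.4 without. It was lower under starvation in both genotypes, and starved RA still lay above normal WT. The level fell to 13.7% in WT (log2 change −2.44, SE 0.078, limma BH-adjusted p = 1.59e-14) and to 72.8% in RA (−0.44, adjusted p = 8.9e-05).

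MAVS, the adaptor that both RIG-I and MDA5 signal through, moved least. In WT, Mavs was measured at 20.6 and 18.1 in normal medium and at 18.1 and 15.6 after starvation, and in RA at 18.7 and 19.6 and at 19.6 and 20.4. The libraries of all groups lay close together, and those of both media overlapped in WT. Its log2 change in WT was −0.19 (SE 0.083, limma BH-adjusted p = 0.0493), a call that was lost in 11 of 21 alternatives; without replicate 1 of normal WT the change was −0.10 (adjusted p = 0.372) and without replicate 2 of starved WT −0.08 (adjusted p = 0.42). In RA the change was 0.06 with a 95% interval from −0.12 to 0.24 (adjusted p = 0.537).

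On the DNA side, cGAS (Mb21d1) fell in both genotypes. Values in normal medium were 26.4 and 28.1 for WT and 31.7 and 30.4 for RA, and those under starvation 9.30 and 7.64 for WT and 11.8 and 10.7 for RA. The starved libraries of both lines lay below all normal ones. The level fell to 31.1% in WT (log2 change −1.58, SE 0.088, limma BH-adjusted p = 3.13e-11) and to 36.2% in RA (−1.39, adjusted p = 3.57e-10). Mb21d1 was the member with the deepest fall in RA.

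STING (Tmem173), its partner, had values in normal medium of 30.2 and 30.2 for WT and 32.7 and 34.8 for RA, and under starvation of 15 and 13.4 for WT and 28.3 and 26.4 for RA. Starved libraries were lower in both lines, and the gap was wider in WT. The level fell to 47.1% in WT (log2 change −1.04, SE 0.068, limma BH-adjusted p = 2.92e-10) and to 81.1% in RA (−0.29, adjusted p = 0.00111). The CPM of Tmem173 was 1.14 and 1.07 times that of Mb21d1 in WT with glucose, and 1.61 and 1.76 times without. In RA the ratio went from 1.03 and 1.14 to 2.39 and 2.48. The ratio was thus higher in each starved library than in any normal one, and highest in starved RA.

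ZBP1, which binds Z-form RNA and DNA and can start necroptosis through RIPK3, was the one member with opposite calls in the 2 genotypes and a large rise. WT libraries held 1.35 and 1.21 (62 and 60 reads) before and 0.503 and 0.292 (24 and 16 reads) after starvation. RA libraries held 6.85 and 5.81 (298 and 300 reads) before and 29.7 and 28.5 (1514 and 1380 reads) after. The 4 groups did not overlap, and starved RA stood apart from all of them. The log2(CPM + 1) change was −0.71 in WT (SE 0.123, limma BH-adjusted p = 5.11e-05), a scale that understates the fall of so low a gene, and 2.04 in RA (adjusted p = 1.65e-10), where the mean rose to 459% of its normal level. Ddx58 and Adar also fell in WT and rose in RA, by less.

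The last pair acts on double-stranded RNA itself. PKR (Eif2ak2) binds it and halts translation by phosphorylating eIF2alpha. Eif2ak2 was measured at 104 and 97.8 in WT with glucose and at 21.2 and 22.1 without, and at 158 and 145 in RA with glucose and 129 and 129 without. Both starved RA libraries lay above both normal WT libraries although they were lower than normal RA. The level fell to 21.5% in WT (log2 change −2.17, SE 0.049, limma BH-adjusted p = 1.74e-16) and to 85.1% in RA (−0.23, adjusted p = 5.71e-04).

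ADAR1 (Adar) edits adenosine to inosine in double-stranded RNA and so keeps a cell's own RNA from MDA5 and PKR. Normal WT libraries held 111 and 112 and starved ones 71.1 and 68.1, and the RA libraries 164 and 157 before and 182 and 179 after starvation. Starved WT was lowest and starved RA highest, with no overlap. It fell to 62.4% in WT (log2 change −0.67, SE 0.040, limma BH-adjusted p = 7.46e-11) and rose in RA (0.17, adjusted p = 0.00155). The gene makes an interferon-inducible and a constitutive transcript, which gene-level values do not separate. It shares 1365 exon bases, 16.8% of its exons, with Chrnb2 on the opposite strand, and Chrnb2, a nicotinic receptor subunit, held 0.559 to 0.645 of the CPM of Adar in all 8 libraries.

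The ratio of Adar to Eif2ak2 in CPM in normal medium was 1.07 and 1.15 for WT and 1.04 and 1.09 for RA. Under starvation it was 3.36 and 3.08 for WT and 1.41 and 1.39 for RA. In RNA level Adar thus gained on Eif2ak2 in both lines, and more so in WT. There both fell, Adar to 62.4% and Eif2ak2 to 21.5% of the normal level. Protein and enzyme activity were not measured in these data.

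**Figure D2:**
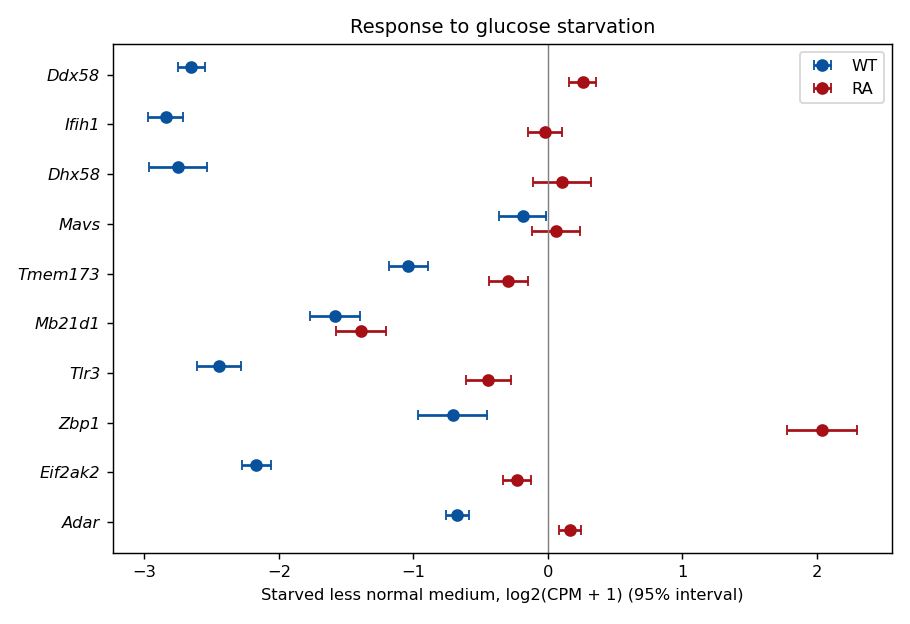
Starved less normal difference of log2(CPM + 1) for each gene in WT and in RA, with the 95% interval of the limma fit and a line at 0. All WT points lie below 0, while the RA points run from −1.39 for Mb21d1 to 2.04 for Zbp1.

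The difference between the genotypes, with which the genes were chosen, is given as a description. In normal medium 7 of the 10 lay past the threshold of the fit as higher in RA, none lay past it as lower, and Mavs, Tmem173 and Mb21d1 lay on the near side of it. Over all genes 6.68% were higher in RA and 2.95% lower, and nothing is read from the comparison. Log2 differences ran from −0.01 for Mavs (fold 0.989) to 1.68 for Zbp1 (fold 4.95). Dhx58 stood 2.18-fold higher, Tlr3 1.90-fold, Ifih1 1.83-fold, Ddx58 1.78-fold, Eif2ak2 1.5-fold and Adar 1.44-fold. The DNA sensor Mb21d1 was 1.14-fold and STING, Tmem173, 1.12-fold higher.

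Under starvation all 10 lay past it as higher in RA, where 30.8% of all genes were higher and 32.1% lower, and nothing is read from it. Zbp1 was 73.1-fold higher, Dhx58 23.4-fold, Ifih1 15.4-fold, Ddx58 14.1-fold and Tlr3 10.04-fold. Eif2ak2 was 5.96-fold, Adar 2.59-fold, Tmem173 1.92-fold, Mb21d1 1.33-fold and Mavs 1.18-fold higher. The order was RNA receptors first, and the adaptor and the DNA sensor last. These contrasts share the normal and starved libraries with the responses above, so they are not independent of them.

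The RA response less the WT response lay past the threshold for 8 of the 10, all positive, with 24.5% of all genes positive and 26.1% negative, and again nothing is read from the count. The values were near 2.8 to 2.9 on the log2 scale for Ddx58, Ifih1, Dhx58 and Zbp1, near 2.0 for Tlr3 and Eif2ak2, and 0.74 and 0.84 for Tmem173 and Adar. Those of Mavs (0.25, 95% interval from −0.0018 to 0.50) and of Mb21d1 (0.19, 95% interval from −0.073 to 0.46) did not reach it.

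**Figure D3:**
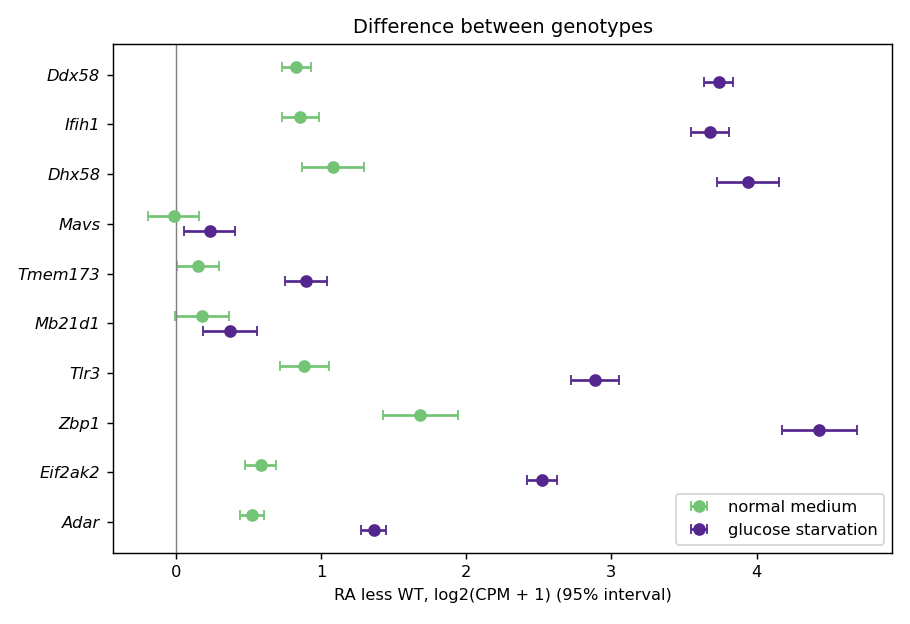
RA less WT difference of log2(CPM + 1) for each gene in normal medium and under starvation, with the 95% interval of the limma fit. The starved difference exceeds the normal one for every gene, from 0.23 for Mavs to 4.43 for Zbp1.

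Levels were compared between genes as CPM per kilobase of merged exons (GENCODE M21 on GRCm38, not the authors' annotation, so lengths are approximate). In normal WT the order was Eif2ak2 (19.7 ± 0.82), Ddx58 (15.5 ± 0.30), Adar (13.7 ± 0.082), Tmem173 (11 ± 0.015), Mb21d1 (6.61 ± 0.30), Mavs (5.78 ± 0.52), Dhx58 (5.29 ± 0.28), Ifih1 (4.79 ± 0.14), Tlr3 (3.39 ± 0.066) and Zbp1 (0.362 ± 0.028). Mavs did not differ from Dhx58 beyond the spread. In starved WT, Adar led at 8.58, and Tmem173 (5.19 ± 0.40) and Mavs (5.05 ± 0.53) came next without differing beyond their spread. Eif2ak2 (4.23) followed, and then Ddx58 (2.35 ± 0.13) and Mb21d1 (2.05 ± 0.29), which did not differ beyond their spread. Further down, Dhx58 (0.532 ± 0.16) did not differ beyond the spread from Ifih1 (0.563 ± 0.017) or from Tlr3 (0.465 ± 0.013). The adaptors thus outranked every RNA receptor.

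In normal RA, Eif2ak2 (29.6 ± 1.9) and Ddx58 (27.6 ± 1.5) led with overlapping spread, and Tmem173 (12.3 ± 0.53) and Dhx58 (11.6 ± 0.039) followed Adar (19.8). In starved RA, Ddx58 came first at 33.1, ahead of Eif2ak2 at 25.2 and Adar at 22.2. Ifih1 (8.66 ± 0.45) and Zbp1 (8.24 ± 0.23) did not differ beyond their spread, and Mb21d1 was last at 2.72. Zbp1 was last in the other groups, with 0.362 and 0.113 for WT before and after starvation and 1.79 for normal RA.

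The 3 RIG-I-like receptors kept nearly the same profile over the 8 libraries. Measured as the root mean square difference of log2(CPM + 1), each gene centred on its own mean, Ddx58 and Ifih1 were 0.133 apart, Ifih1 and Dhx58 0.178, Ddx58 and Dhx58 0.185, and Tlr3 and Eif2ak2 0.216. Outside the set, the genes most like Ddx58 were Ifi47 (0.0975), an interferon-induced GTPase, and Apol9b (0.137). Ifi47 was low, so its likeness holds on the log2(CPM + 1) scale, while in CPM it kept 3.24% of its normal level in starved WT against 15.2% for Ddx58 and was 79.8-fold higher in starved RA than in starved WT against 14.1-fold. Those most like Ifih1 were Irgm2 (0.129), of the same GTPase group, and Oasl1 (0.162), of the oligoadenylate synthetase family. Oasl1 was low as well. In CPM it kept 3.98% in starved WT against 11.7% for Ifih1, and was 46.8-fold higher in starved RA than in starved WT against 15.4-fold. Those most like Dhx58 were Gbp7 (0.129), a guanylate-binding protein, and Ube2l6 (0.130), the ISG15-conjugating enzyme.

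Tlr3 ran closest to Lgals9 (0.0645), a galectin, and 9930111J21Rik2 (0.113). The latter was low, and in CPM it kept 6.44% in starved WT against 13.7% for Tlr3. Eif2ak2 ran closest to Ntn4 (0.125) and Thbd (0.129), and Adar to its overlapping neighbour Chrnb2 (0.0636) and to Ggct (0.0823). Thbd and Ggct were low. In CPM Ntn4 kept 14.5% and Thbd 11.2% in starved WT against 21.5% for Eif2ak2, and Ggct kept 48.8% against 62.4% for Adar. Mavs was nearest to Pi4ka (0.0414) and Gm340 (0.0532), both nearly flat over the libraries. Tmem173 was nearest to Cd180 (0.0342), which itself overlaps Mast4, and Tmem184b (0.0501), and Mb21d1 to Calm3 (0.0982) and Hist1h2be (0.0987). Hist1h2be was low, and in CPM it kept 19.8% in starved WT against 31.1% for Mb21d1. No gene ran as close to Zbp1: the nearest were Ifi207 at 0.350 and Apod at 0.395, which stood at 25.2 and 23.5 in starved RA against 0.412 and 0.395 in starved WT.

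The genes around the sensors were taken as 7 lists of 90 genes with no member among them, of which 83 were tested. In WT 33 rose and 38 fell, where 39.3% of all tested genes rose and 39.2% fell. In RA 33 rose and 23 fell, where 35% of all tested genes rose and 33.7% fell. The same shares are the background for the counts of each list below. Past the threshold of the fit RA was higher than WT for 17 and lower for 1 in normal medium, beside 6.68% and 2.95% of all genes. Under starvation it was higher for 39 and lower for 26, beside 30.8% and 32.1%. Lists are described by counts and medians only, and differences between the genotypes are again given with no p-value.

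Of 11 regulators of the RIG-I-like receptors 8 fell and 2 rose in WT (median log2 change −0.20), and in RA 3 fell and 5 rose (median 0.20). Tnfaip3 (A20), a deubiquitinase that restrains the pathway, went from 55.1 to 8.0 in WT (log2 change −2.64, limma BH-adjusted p = 1.25e-16), and fell in RA from 66.5 to 38.2 (−0.78, adjusted p = 3.18e-09). Nlrc3, a restrainer of STING signalling, rose from 12 to 23.5 in WT (0.91, adjusted p = 1.88e-08) and in RA, 12.9 to 15.3 (0.23, adjusted p = 0.02). In RA Nlrc5, of the same protein family, rose from 34.9 to 61.3 (0.80, adjusted p = 7.31e-09) and Trim65, a ubiquitin ligase for MDA5 that shares exon bases with Trim47, went from 4.21 to 1.98 (−0.81, adjusted p = 1.09e-05). In WT both fell, Nlrc5 from 20.4 to 16.1 (−0.32, adjusted p = 1.82e-04) and Trim65 from 4.99 to 1.53 (−1.24, adjusted p = 3.72e-08).

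Relay genes downstream of MAVS and STING were split, with 7 of 18 higher and 7 lower in WT and 10 higher and 3 lower in RA (medians 0.04 and 0.26). Irf7, the interferon-inducible transcription factor that amplifies interferon production, went from 34.6 to 5.61 in WT and, in the opposite direction, from 87.5 to 204 in RA. It fell in WT (log2 change −2.43, limma BH-adjusted p = 5.74e-16) and rose in RA (1.21, adjusted p = 1.6e-11), the pattern of Zbp1 at a higher level. Traf6, an adaptor ligase, rose in WT from 19.9 to 44.3 (1.12, adjusted p = 1.69e-10) and in RA from 20.8 to 37.8 (0.83, adjusted p = 1.6e-08). The kinase Tbk1 stood at 59.5 in starved RA and at 76.2 in starved WT, a log2 difference of −0.35. Nfkb1, an NF-kappaB subunit, fell in WT, 99.3 to 44.0 (−1.16, adjusted p = 2.28e-13), and in RA, 98.7 to 76.4 (−0.36, adjusted p = 1.81e-06).

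Other sensors of DNA and the enzymes that remove it fell for 11 of 20 genes in WT and rose for 8, and in RA 7 fell and 6 rose (medians −0.31 and 0.01). The deepest fall was that of Ifi204, of the HIN-200 family of DNA-binding proteins, from 55.6 to 3.15 in WT (log2 change −3.78, limma BH-adjusted p = 1.99e-17), and it stood at 127 and 136 in normal and starved RA. Mndal of the same cluster went from 93.3 to 7.77 in WT. These genes are close copies of each other, so reads could be split between them and single values are uncertain. Dnase2a, the lysosomal DNA nuclease that overlaps Mast1 on the opposite strand, rose with starvation both in WT, 15 to 48.2 (1.62, adjusted p = 2.75e-12), and in RA, 16.8 to 27.5 (0.68, adjusted p = 5.33e-07). Samhd1, which degrades deoxynucleotides, fell both in WT, 118 to 44.0 (−1.41, adjusted p = 6.57e-15), and in RA, 129 to 67.5 (−0.93, adjusted p = 4.74e-12).

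Of 7 genes of endosomal nucleic acid receptors and their handling 4 rose and 2 fell in WT, beside 39.3% and 39.2% of all tested genes. In RA 4 rose and 1 fell, beside 35% and 33.7% (medians 0.55 in WT and 0.49 in RA). With so few genes no direction is read from these counts. Tlr3 itself fell in both genotypes. Tlr7, Tlr8, Tlr9 and Tlr13 did not pass the filter. Hsp90b1, the endoplasmic reticulum chaperone of these receptors and of many other proteins, rose in WT (log2 change 1.56, limma BH-adjusted p = 8.77e-15) and in RA (0.67, adjusted p = 1.75e-09). Ticam1 (TRIF), the adaptor that TLR3 signals through, rose in WT from 19.6 to 58.6 (1.53, adjusted p = 2.35e-12) and in RA, 19.7 to 35.1 (0.80, adjusted p = 2.72e-08), while the kinase Irak4 fell in WT (−0.36, adjusted p = 2.97e-07) and in RA (−0.28, adjusted p = 9.02e-06). Unc93b1, which carries the receptors to endosomes, stood at 8.19 in starved RA and at 5.73 in starved WT, a log2 difference of 0.45.

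Among the other eIF2alpha kinases and their partners 5 of 9 rose and 3 fell in WT, and 3 rose and 2 fell in RA (medians 0.25 and 0.10). Ppp1r15a (GADD34), the phosphatase subunit that reverses eIF2alpha phosphorylation, rose in WT from 38.4 to 575 (log2 change 3.87, limma BH-adjusted p = 6.46e-20), and in RA it went from 51.6 to 391 (2.90, adjusted p = 1.02e-17). Eif2s1, the substrate eIF2alpha, fell slightly in both (−0.23, adjusted p = 2.46e-04, and −0.26, adjusted p = 7.53e-05). Dnajc3, a chaperone that inhibits PKR, stood at 202 in starved RA and at 390 in starved WT, a log2 difference of −0.95. Tarbp2, a double-stranded RNA binding protein that also inhibits PKR, stood at 91.7 and 75.9, a log2 difference of 0.27.

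Of 6 partners of ZBP1 in cell death 3 fell and 2 rose in each genotype (medians −0.59 in WT and −0.25 in RA). Mlkl, the protein that carries out necroptosis, fell from 39.0 to 9.68 in WT (log2 change −1.90, limma BH-adjusted p = 6.18e-15), and in RA it fell from 56.8 to 39.5 (−0.51, adjusted p = 4.89e-07). Cflar, an inhibitor of caspase-8, rose from 48.8 to 85.9 in WT (0.81, adjusted p = 6.95e-10), and from 50.2 to 63.1 in RA (0.33, adjusted p = 7.41e-05). Casp8 fell in WT from 26.5 to 12.5 (−1.03, adjusted p = 2.05e-09) and in RA from 26.2 to 16.4 (−0.64, adjusted p = 1.38e-06). Ripk1 rose in WT from 48.8 to 70.7 (0.52, adjusted p = 2.1e-08) and in RA from 54.0 to 68.8 (0.34, adjusted p = 6.03e-06). None of the partners shared the rise of Zbp1 in size.

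Genes that edit, unwind or degrade double-stranded RNA were split, with 5 of 12 higher and 4 lower in WT and 3 higher and 4 lower in RA (medians −0.02 and −0.01). Adarb2, an ADAR family member without known editing activity, fell in WT (log2 change −0.99, limma BH-adjusted p = 3.8e-10) and in RA (−0.65, adjusted p = 1.71e-07). Pnpt1, a mitochondrial nuclease that clears double-stranded RNA, stood at 78.0 in starved RA and at 38.9 in starved WT, a log2 difference of 0.98.

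**Figure D4:**
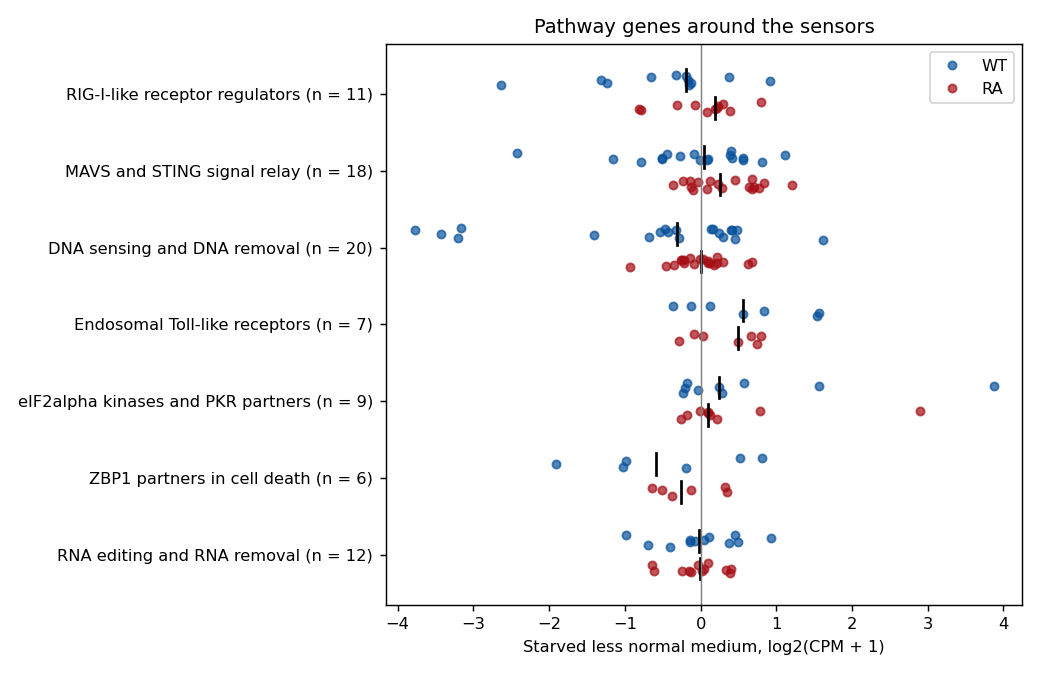
Starved less normal difference of log2(CPM + 1) for every tested gene of the 7 lists, in WT and in RA, with 1 point per gene and a black bar at the list's median. The medians lie between −0.59 and 0.55 in WT and between −0.25 and 0.49 in RA, and each list spreads to both sides of 0.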

How the data were processed

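Reads of polyA libraries (TruSeq RNA v2 kit, which does not mark strand) were mapped by the authors to mm9 with TopHat2, version 2.0.9 in the submitters' processing notes, where bedtools and edgeR are also named. How reads were assigned to genes, and over which annotation, is not given in the sources used here. The authors deposited 1 table with 49492 gene symbols, whose values are a signal: read counts in CPM of a library size that they scaled. The study marks glucose starvation with a plus sign, and columns named plus and minus were read accordingly. All nonzero values (100%) were whole reads, within 0.05 of a read, and of the counts from 1 to 9 between 78.2% and 80.5% were even, a sign that both mates were counted. Read totals speak to counting error only.

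A gene was tested if 2 or more samples reached a value of 1. Values were taken as log2(value + 1), on which the changes of low genes are understated. The test was limma (version 3.58.1, in R 4.3.3), fitted with 1 mean for each of the 4 groups over 8 samples, with the prior variance following mean expression. It was 2-sided, with Benjamini-Hochberg adjustment over the 16232 genes of each contrast, and genes under an adjusted p of 0.05 were called; "rose" and "fell" refer to called genes. On simulated counts for starvation in WT, with 200 of 16232 genes changed 2-fold, 90.8% were recovered and 7.34% of calls were false (mean of 10 draws). In the data 39.3% of tested genes rose and 39.2% fell, so these shares may not hold for its calls. The planned unit was plain CPM, and the scaled CPM were tested in the same way.

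The members and the 7 lists were chosen with earlier results of these data known. Named list genes are, in each list, the 2 called genes at either end of the log2 change in starved WT, in starved RA and in starved RA against WT, among genes with a mean of at least 1. Some are given for 1 contrast only, 1 is not reported here, and Mndal was added after its values were seen. For each member the 2 most similar genes are named. Alternatives changed the pseudocount, filter, scaling, trend, groups fitted, replicate block and threshold, left out each sample, and ran count tests on the recovered reads in edgeR (version 4.0.16) and DESeq2 (version 1.42.0). A run of edgeR on halved reads was added after seeing the data.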

Additional observations from a re-analysis of the deposited data

Results flagged for a closer look

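For 8 of the 10 genes the response to glucose starvation in Pontin RA MEFs less that in Pontin WT MEFs lay past the threshold of the fit and was picked out for that. On the log2(CPM + 1) scale the difference was 2.91 for Ddx58, 2.86 for Dhx58, 2.82 for Ifih1, 2.75 for Zbp1, 2.001 for Tlr3, 1.94 for Eif2ak2, 0.84 for Adar and 0.74 for Tmem173. The genes were chosen with differences between the genotypes known, so these values are a description and no test of the choice. The line and the Pontin form cannot be told apart.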

How the results depend on the processing

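The stricter threshold is treated further below and is left out of the following counts. Of the log2 changes of the members under all other alternatives, 1016 kept their direction and their side of the threshold, 16 no longer passed, 4 newly passed and 4 changed sign. Those that no longer passed were all of Mavs: starvation in WT in 11 of 21 alternatives (values from −0.205 to −0.0704, adjusted p from 0.054 to 0.447, while over all its alternatives the adjusted p started at 0.0116) and RA against WT under starvation in 5. The changes of sign were of values near 0. For Ifih1 under starvation in RA the values with 1 library left out ran from −0.0725 to 0.0326, above 0 without replicate 1 of normal RA (0.0284) or replicate 1 of starved RA (0.0326). For Mavs in RA against WT in normal medium they ran from −0.100 to 0.0737, above 0 without replicate 1 of normal WT (0.0737) or of normal RA (0.0199). The RA response less the WT response newly passed for Mavs when scaled to total reads (0.315), without replicate 2 of normal WT (0.334) and without replicate 1 of starved WT (0.349), and for Mb21d1 without replicate 1 of starved WT (0.320).

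At an adjusted p under 1e-05, 8 members were called under starvation in WT and 2 under starvation in RA. Of the list genes 45 were called under starvation in WT and 26 under starvation in RA. Beside them, 45.6% and 30.6% of all tested genes were called. In RA against WT 10 list genes were called in normal medium and 34 under starvation, beside 0.869% and 22.2% of all tested genes. In the difference of responses 17 list genes were called, beside 10.9% of all tested genes. Counts between the genotypes are again descriptions, and nothing is read from them. At 0.05 the list genes called were 71, 56, 18, 65 and 55 in this order of contrasts. Replicate numbers did not strongly pair the samples, as the correlations of their deviations ran from −0.00764 to 0.157. These values do not exclude a weak shared effect of the replicate number. With the replicate number as a block 10, 7, 7, 10 and 8 members were called in the same order of contrasts, the counts without it, among 12922, 11406, 2059, 10494 and 8578 of all 16232 genes. With 2 replicates per group, depth limits Zbp1 and Dhx58 most, in starved WT.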
